A study of Mus musculus with 10 samples.

Results

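Hif1a, Egln3, Vegfa, Adm, Bnip3, Pdk1, Ndrg1 and P4ha1 belong to the transcriptional response of mammalian cells to low oxygen, and are described here in myeloid cells of the tumour-bearing mouse lung. The set was given as 8 gene symbols, matched to the symbol column of the authors' comparison tables, and the transcripts of each were summed to a gene in every library. They are 8 of 29893 genes summed, and all 8 were among the 13384 genes that passed the filter on low counts and were tested. The study sequenced RNA of CCR2+ monocytes and of neutrophils, sorted by fluorescence from lungs of NOD/scid mice, an immunodeficient strain without functional T and B lymphocytes. Each mouse carried either the low metastatic tumour HCl-002 (TN2) or the highly metastatic tumour HCl-001 (TN1), and the lungs were taken at end point. The groups are TN2 monocytes (tag_367, tag_706 and tag_1341), TN1 monocytes (tag_191 and tag_482), TN2 neutrophils (tag_367, tag_706 and tag_1341) and TN1 neutrophils (tag_191 and tag_482). Values within a group are given below in this order of tags. The age of the mice and any pooling of animals are not given in the sources used here, and lungs without a tumour are not analysed here. Nothing in the labels ties a tag to its own animal. The p-values therefore reflect only how these libraries vary, which may be technical.

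When oxygen is plentiful, prolyl hydroxylases of the EGLN family mark the alpha subunits of hypoxia-inducible factor (HIF) for destruction through the von Hippel-Lindau ubiquitin ligase. When oxygen is short, HIF1A is spared, pairs with ARNT and binds DNA at a short core motif in promoters and enhancers of its targets. These targets bring in blood vessels, shift metabolism to glycolysis, remove mitochondria and modify collagen. HIF1A is regulated largely at the protein level, which RNA sequencing does not measure. In myeloid cells HIF1A is known to support glycolysis and survival of neutrophils and macrophages in poorly oxygenated tissue.

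Libraries held 7239218 to 11311370 estimated counts. Levels are given as TPM, in which each library sums to the same total and transcript length is corrected for, so that genes can be compared with each other. Markers of neutrophils summed to 484 to 8956 TPM in the monocyte libraries and 142002 to 217596 TPM in the neutrophil libraries, and markers of monocytes to 2695 to 16101 TPM in monocytes and 309 to 1723 TPM in neutrophils. TN2 monocyte library tag_706 stood apart. Its markers of endothelium summed to 1337 TPM, those of epithelium to 833 TPM and those of stroma to 800.1 TPM, against 13.8 to 99.0, 2.71 to 239 and 1.54 to 14.1 TPM in the other monocyte libraries. Its neutrophil markers, 8956 TPM, were also the highest of the monocyte libraries (484 to 3154 TPM in the others), and it had the most genes at 5 counts or more, 15211. The TN1 libraries of tag_482 had the fewest such genes of their cell type, 9732 in monocytes and 8851 in neutrophils, and the largest share of TPM on mitochondrially encoded genes, 19.9% in monocytes and 3.0% in neutrophils. In sorted bulk samples, fewer cells of a type and less RNA per cell cannot be told apart.

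Promoters of Adm, Egln3 and Bnip3 are shown because these genes shared their highest monocyte library, TN2 tag_706, by a wide margin (Vegfa was also highest there, close to tag_367), and because Bnip3 held the most matches to the HIF core motif among the genes of the set with an entry. The sequences are from RefSeq on GRCm38.p6, 250 bases before to 50 bases after the start of the gene, on the strand of the gene, at chr7:110627407-110627706 (plus strand) for Adm, chr12:54203825-54204124 (minus strand) for Egln3 and chr7:138909457-138909756 (minus strand) for Bnip3. Capitals mark ACGTG and GCGTG on either strand (CACGT and CACGC when read on the shown strand), and adjoining or overlapping matches run together.
Adm: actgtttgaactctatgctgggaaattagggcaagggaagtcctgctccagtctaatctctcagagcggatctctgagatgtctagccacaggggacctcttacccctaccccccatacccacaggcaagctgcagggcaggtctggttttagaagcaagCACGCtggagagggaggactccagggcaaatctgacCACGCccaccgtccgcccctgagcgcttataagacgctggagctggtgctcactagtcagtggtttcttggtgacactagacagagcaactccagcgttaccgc
Egln3: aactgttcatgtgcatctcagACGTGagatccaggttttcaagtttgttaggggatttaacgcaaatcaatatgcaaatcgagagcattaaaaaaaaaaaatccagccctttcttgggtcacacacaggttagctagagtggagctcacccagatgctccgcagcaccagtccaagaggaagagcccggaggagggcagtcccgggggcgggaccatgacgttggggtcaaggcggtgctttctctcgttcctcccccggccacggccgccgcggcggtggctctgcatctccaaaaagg
Bnip3: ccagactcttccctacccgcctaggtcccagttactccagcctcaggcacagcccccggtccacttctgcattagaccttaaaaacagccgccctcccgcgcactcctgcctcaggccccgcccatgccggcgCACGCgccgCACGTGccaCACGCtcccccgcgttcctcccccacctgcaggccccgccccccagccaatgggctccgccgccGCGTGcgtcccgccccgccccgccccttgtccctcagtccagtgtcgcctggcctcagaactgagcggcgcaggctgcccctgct
The Adm window held 2 matches, both GCGTG on the other strand, the Egln3 window 1 and the Bnip3 window 5, of which 2 overlap as a palindrome. Promoter entries were matched for 7 of the 8 genes, all but Ndrg1, and all 7 had a match in at least 1 entry (7 of 9 entries). Of 32851 promoters of the same length 43.8% held ACGTG or GCGTG, 19.6% the first and 32.4% the second. A match describes these letters and does not show that HIF binds there.

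The 8 genes spanned a wide range of levels. Hif1a and Ndrg1 were the most abundant in every library, Vegfa, Bnip3 and P4ha1 lay below them, and Egln3, Adm and Pdk1 were the lowest in most libraries, with Adm at 7 counts or fewer in 8 of the 10 and Egln3 at 5 counts or fewer in 5 of the 10. Between tumours none of the 8 passed the test in either cell type, where 0 of all 13384 genes tested passed. Between cell types Bnip3 and Vegfa were lower in monocytes than in neutrophils on read counts, Vegfa close to the threshold. The other 6 did not pass, and 27.9% of all genes tested passed, so 2 of 8 is near the background. On log2(TPM + 1) 0 of the 8 passed between cell types.

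**Figure D1:**
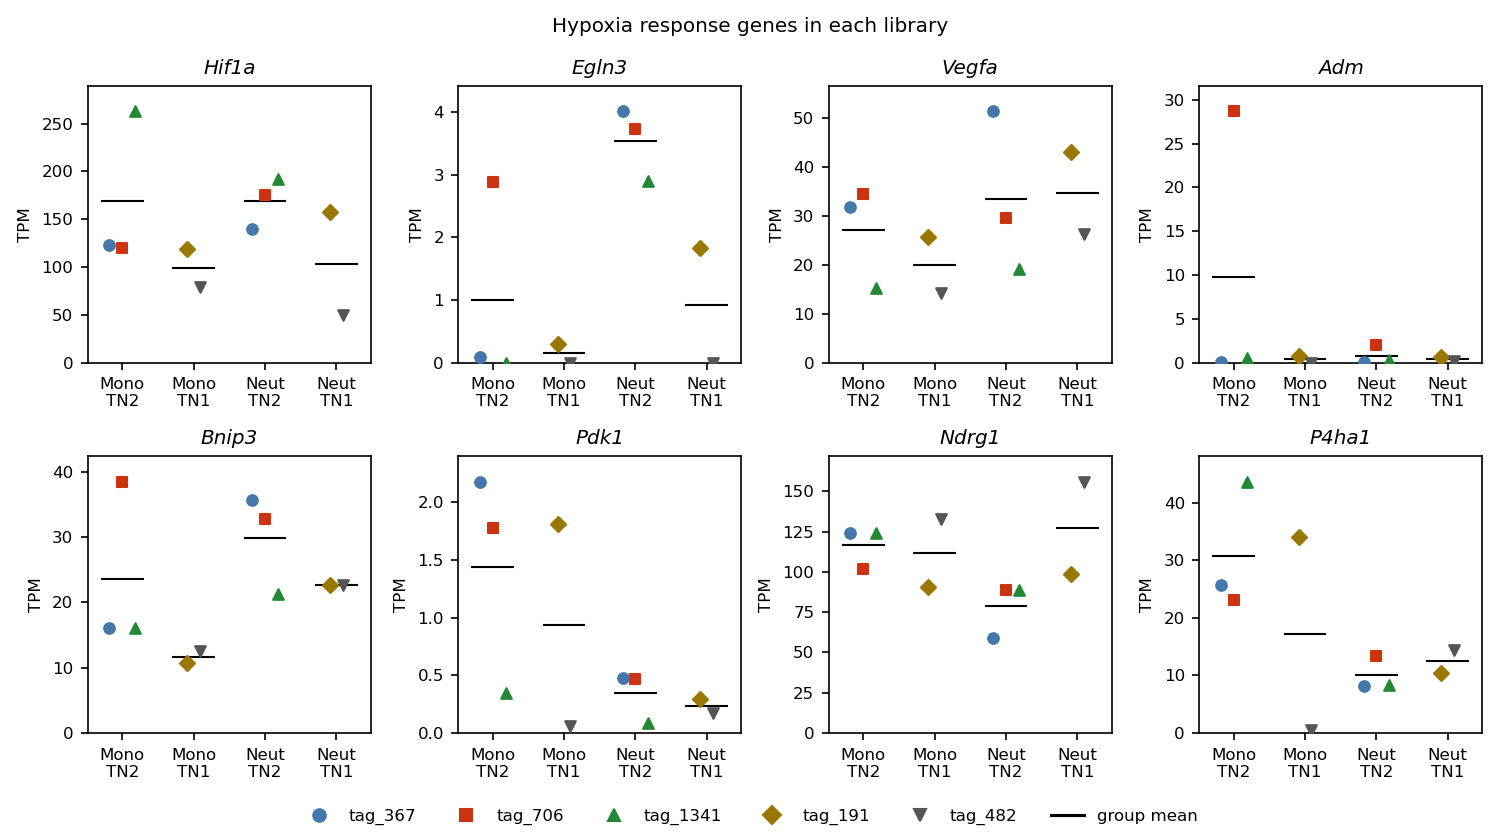
TPM of the 8 genes in each of the 10 libraries, by cell type and tumour; each point is a library, its shape and colour give the tag, and the horizontal line is the group mean. Adm was at 28.7 TPM in TN2 monocyte library tag_706 and at most 1.99 TPM elsewhere, and P4ha1 was at 0.551 TPM in TN1 monocyte library tag_482.

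Hif1a, on chromosome 12 (73901375 to 73947530, plus strand, GRCm38), encodes the oxygen-regulated alpha subunit of HIF. It was at 123, 119.6 and 263 TPM in TN2 monocytes, against 119 and 79.1 TPM in TN1 monocytes. In TN2 neutrophils it was at 139.7, 175 and 192 TPM, against 157 and 49.7 TPM in TN1 neutrophils. The tag_1341 library was the highest of both cell types, and the tag_482 library was the lowest of both. TN2 and TN1 monocytes did not overlap on this scale, although tag_706 and tag_191 were nearly level, while the neutrophil groups overlapped. TN2 minus TN1 was 0.06 ± 0.48 (log2, SE) in monocytes and 0.64 ± 0.49 in neutrophils (edgeR quasi-likelihood test, adjusted p = 1 and 0.943). The transcript Hif1a-201 made up 42.6% of the gene's TPM in monocytes and 38.5% in neutrophils. A further 23.2% and 24.7% was on Hif1a-202, also protein coding. The retained intron transcript Hif1a-204 carried 15.3% and 18.4%, and the processed transcript Hif1a-205 carried 18.4% and 16.2%. The TPM of the gene is therefore not that of its protein-coding transcripts alone. An antisense gene within the locus, Gm15283, held 0 to 67.2 estimated counts per library. Whether the counting used strand is not given in the sources used here.

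Egln3, on chromosome 12 (54178981 to 54203860, minus strand), encodes an oxygen-sensing prolyl hydroxylase that acts on HIF alpha subunits and is itself induced by HIF. It was at 0.0905, 2.89 and 0 TPM in TN2 monocytes, against 0.301 and 0 TPM in TN1 monocytes, which are 2, 59 and 0 counts against 5 and 0 counts. In TN2 neutrophils it was at 4.02, 3.73 and 2.90 TPM, against 1.83 and 0 TPM in TN1 neutrophils, which are 80, 86 and 65 counts against 40 and 0 counts. All 3 TN2 neutrophil libraries lay above both TN1 neutrophil libraries. Among the monocytes only tag_706, at 2.89 TPM, exceeded any of the 4 neutrophil libraries above 0, and of these only TN1 tag_191. On read counts relative to library size (CPM) it lay below all 4, at 4.05 against 5.12 to 11.5 CPM. A count of 0 allows up to 3 counts from counting error alone, and PCR copies without molecular barcodes are not independent molecules. TN2 minus TN1 was 2.31 ± 2.41 in monocytes and 2.03 ± 2.30 in neutrophils (log2, SE, edgeR adjusted p = 1 and 0.964). Without TN2 library tag_706 the monocyte value turned to -1.68.

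Vegfa, on chromosome 17 (46016993 to 46032369, minus strand), encodes the vascular endothelial growth factor that drives the growth of blood vessels. Its level was 31.8, 34.3 and 15.3 TPM in TN2 monocytes, against 25.7 and 14.1 TPM in TN1 monocytes. TN2 neutrophils had 51.3, 29.5 and 19.1 TPM, against 43.0 and 26.2 TPM in TN1 neutrophils. The tumour groups overlapped in both cell types, and the lowest TN2 library of both was tag_1341, where Hif1a was highest. The tumour difference was -0.15 ± 0.47 in monocytes and 0.24 ± 0.47 in neutrophils (log2, SE, edgeR adjusted p = 1 and 0.991). On log2(TPM + 1) the sign turned in both cell types, to 0.40 in monocytes and -0.12 in neutrophils. Vegfa-201 carried 65.0% of the gene's TPM in monocytes and 52.0% in neutrophils, and the retained intron transcript Vegfa-208 carried 11.3% and 18.9%.

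Adm, on chromosome 7 (110627661 to 110629820, plus strand), encodes the precursor of adrenomedullin, a secreted peptide that dilates vessels and steadies the endothelial barrier. It was at 0.0951, 28.7 and 0.495 TPM in TN2 monocytes, against 0.741 and 0 TPM in TN1 monocytes, which are 1, 279 and 5 counts against 6 and 0 counts. In TN2 neutrophils it was at 0.106, 1.99 and 0.280 TPM, against 0.669 and 0.210 TPM in TN1 neutrophils, which are 1, 22 and 3 counts against 7 and 2 counts. The tag_706 library was the highest of both cell types, and every other library held 7 counts or fewer. TN2 minus TN1 was 4.27 ± 2.62 in monocytes and 0.98 ± 2.26 in neutrophils (log2, SE, edgeR adjusted p = 1 and 0.996). TN2 neutrophil library tag_706 also had the highest summed markers of epithelium and stroma among the neutrophils, 155 and 9.18 TPM, against at most 112 and 6.09 TPM in the other neutrophil libraries. Its endothelial markers were not the highest, at 116 TPM against 173 TPM in TN2 tag_367 and 138 TPM in TN1 tag_482. The part of other cells in the Adm level was not tested. An antisense gene, Gm28863, overlaps Adm and was not counted apart from it. Without TN2 monocyte library tag_706 or TN2 neutrophil library tag_706, Adm no longer passed the filter on low counts and was not tested.

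Bnip3, on chromosome 7 (138890836 to 138909519, minus strand), encodes an outer mitochondrial membrane protein that directs mitochondria to autophagy. It was at 16.1, 38.5 and 16.1 TPM in TN2 monocytes, against 10.7 and 12.6 TPM in TN1 monocytes. In TN2 neutrophils it was at 35.7, 32.8 and 21.3 TPM, against 22.6 TPM in both TN1 libraries. The TN2 monocytes lay above the TN1 monocytes without overlap, with tag_706 far above the rest, and the neutrophil groups overlapped. The tumour difference was 0.60 ± 0.47 in monocytes and 0.45 ± 0.46 in neutrophils (log2, SE, edgeR adjusted p = 1 and 0.954), and without TN2 monocyte library tag_706 the monocyte value was 0.22. Nearly all of the level was on the protein-coding transcript Bnip3-201, 95.2% in monocytes and 99.5% in neutrophils. A processed pseudogene, Gm18258, and an antisense gene, Gm45507, overlap the locus on the other strand, and neither was counted apart from Bnip3 here.

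Pdk1, on chromosome 2 (71873224 to 71903858, plus strand), encodes a kinase that switches off pyruvate dehydrogenase and so diverts pyruvate from the mitochondria. It was at 2.18, 1.78 and 0.348 TPM in TN2 monocytes, against 1.81 and 0.0587 TPM in TN1 monocytes, which are 35, 69 and 14 counts against 55 and 1 counts. In TN2 neutrophils it was at 0.476, 0.469 and 0.0880 TPM, against 0.294 and 0.177 TPM in TN1 neutrophils, with 4 to 17 counts per library. Of the 5 monocyte libraries 3 exceeded every neutrophil library, and the tumour groups overlapped in both cell types. Its tumour difference was -0.11 ± 1.48 in monocytes and 0.16 ± 1.51 in neutrophils (log2, SE, edgeR adjusted p = 1 in both). The protein-coding transcript Pdk1-201 made up 62.9% of the gene's TPM in monocytes (0% to 100% by library). In neutrophils it made up 50.6% (23.6% to 100%). The rest was on processed transcripts, so the TPM of the gene is not that of its protein-coding transcript alone.

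Ndrg1, on chromosome 15 (66929318 to 66969640, minus strand), encodes a cytosolic protein induced by hypoxia and other stresses. It was at 124, 102 and 124 TPM in TN2 monocytes, against 90.5 and 133 TPM in TN1 monocytes. TN2 neutrophils had 59.0, 88.8 and 88.8 TPM, against 98.6 and 156 TPM in TN1 neutrophils. The monocyte groups overlapped, whereas both TN1 neutrophil libraries lay above the TN2 neutrophil libraries. TN2 minus TN1 was -0.31 ± 0.39 in monocytes and -0.58 ± 0.38 in neutrophils (log2, SE, edgeR adjusted p = 1 and 0.943). The neutrophil value was -0.20 without TN1 library tag_482, the highest of the 10. Of the genes that overlap it on the other strand, Gm17035 held 0 counts and Gm2895 0 to 8 counts per library.

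P4ha1, on chromosome 10 (59323296 to 59373304, plus strand), encodes the catalytic subunit of the prolyl 4-hydroxylase that stabilises collagen. It was at 25.7, 23.1 and 43.7 TPM in TN2 monocytes, against 34 and 0.551 TPM in TN1 monocytes, which are 639, 543 and 986 counts against 657 and 15 counts. In TN2 neutrophils it was at 8.25, 13.4 and 8.36 TPM, against 10.5 and 14.5 TPM in TN1 neutrophils. Every monocyte library except TN1 tag_482 lay above every neutrophil library, and TN1 tag_482 lay below all of them. TN2 minus TN1 was 0.58 ± 1.02 in monocytes and -0.26 ± 1.0 in neutrophils (log2, SE, edgeR adjusted p = 1 in both). In monocytes the value was -0.43 without TN1 library tag_482 and 4.88 without TN1 library tag_191 (adjusted p = 0.0514), where the TN1 group rests on tag_482 alone and that library is assumed to vary like the other groups. Over 17 alternative settings the adjusted p of this value ran from 0.0514 to 1.

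Ordered by their mean TPM, the 4 groups of each gene were mostly closer to their neighbours than the spread of their libraries. Comparing only neighbours in this order keeps the gaps small, and each SD rests on 2 or 3 libraries. Such pairs were not counted for all genes tested, so the count describes these values only. Of 24 pairs of neighbouring groups over the 8 genes, 3 differed by more than the larger SD of the pair. These were Egln3, with 0.995 ± 1.64 TPM in TN2 monocytes below 3.55 ± 0.583 in TN2 neutrophils (SD, n = 3 each), Bnip3, with 11.6 ± 1.34 in TN1 monocytes below 22.6 in both TN1 neutrophil libraries, and Ndrg1, with 112 ± 30.1 in TN1 monocytes (SD, n = 2) above 78.9 ± 17.2 in TN2 neutrophils (SD, n = 3).

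The design text names the comparison of the tumours within each cell type, and none of the 8 genes passed it (adjusted p under 0.05). In monocytes 0 of 13384 genes passed (0%), and 379 (2.83%) had an unadjusted p under 0.05, of which 0 were among the 8. In neutrophils 0 genes passed (0%) and 625 (4.67%) had an unadjusted p under 0.05, again 0 of the 8. DESeq2's Wald test called 22 genes for the monocytes and 87 for the neutrophils, with 0 of the 8 in each, and gave Adm no adjusted p. The median difference over the 8 genes was 0.32 in monocytes and 0.34 in neutrophils, where the median of all genes tested was 0.22 in both. The difference was smaller than its SE for 6 genes of the set in either cell type, and this was not counted for all genes tested. Ranges of TPM did not overlap for 2 of the 8 genes in monocytes, Hif1a and Bnip3, both higher in TN2, where 21.7% of all genes tested were higher and 2.67% lower without overlap. The summed markers of monocytes were also higher in TN2 monocytes without overlap, at 6021 to 16101 TPM against 2695 to 3902 TPM in TN1 monocytes. So were those of interstitial and alveolar macrophages, at 2131 to 11325 TPM against 203 to 731 TPM. Single monocyte markers did overlap. Ccr2 was at 324, 128 and 339 TPM in TN2 monocytes, against 240.3 and 339.6 TPM in TN1 monocytes. Ly6c2 was at 1153, 531 and 1355 TPM, against 989 and 570.2 TPM. Chil3 is in both the monocyte and the macrophage list, so the sums are not independent. The macrophage sum was highest in tag_1341 and lowest in tag_482, as Hif1a was on TPM. In between the order was not shared. The sum was 5741 TPM in tag_706 and 731 TPM in tag_191, where Hif1a was at 119.6 and 119 TPM. On CPM Hif1a was lowest in tag_706, at 195 CPM against 272 CPM in tag_482. In tag_1341, 2 of the 9 macrophage markers were at 0 counts, and the sum reached 1162 TPM in TN1 neutrophil library tag_482. The sum alone therefore does not identify macrophages. The part of monocyte and macrophage content in the levels of Hif1a and Bnip3 was not tested. In neutrophils Egln3 was higher and Ndrg1 lower without overlap, where 10.2% of all genes were higher and 6.87% lower. On CPM, read counts relative to library size after TMM normalization and without correction for length, 0 of the 8 genes were without overlap in monocytes (12.4% of all genes higher and 7.73% lower), and Egln3 and Bnip3 were higher in TN2 neutrophils (11.8% of all genes higher and 5.91% lower). The test of whether the tumour difference was unequal in the cell types also passed for 0 genes (0%) by edgeR, with 472 (3.53%) at an unadjusted p under 0.05, and for 30 by DESeq2, 0 of the 8 in each case. In the authors' deposited table the adjusted p was 1 for all 8 genes in both cell types. The smallest unadjusted p there (AltAnalyze) was that of Egln3 in neutrophils, 0.0432, with a log2 difference of 1.43. The unadjusted p of Egln3 by edgeR was 0.399 in neutrophils.

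**Figure D2:**
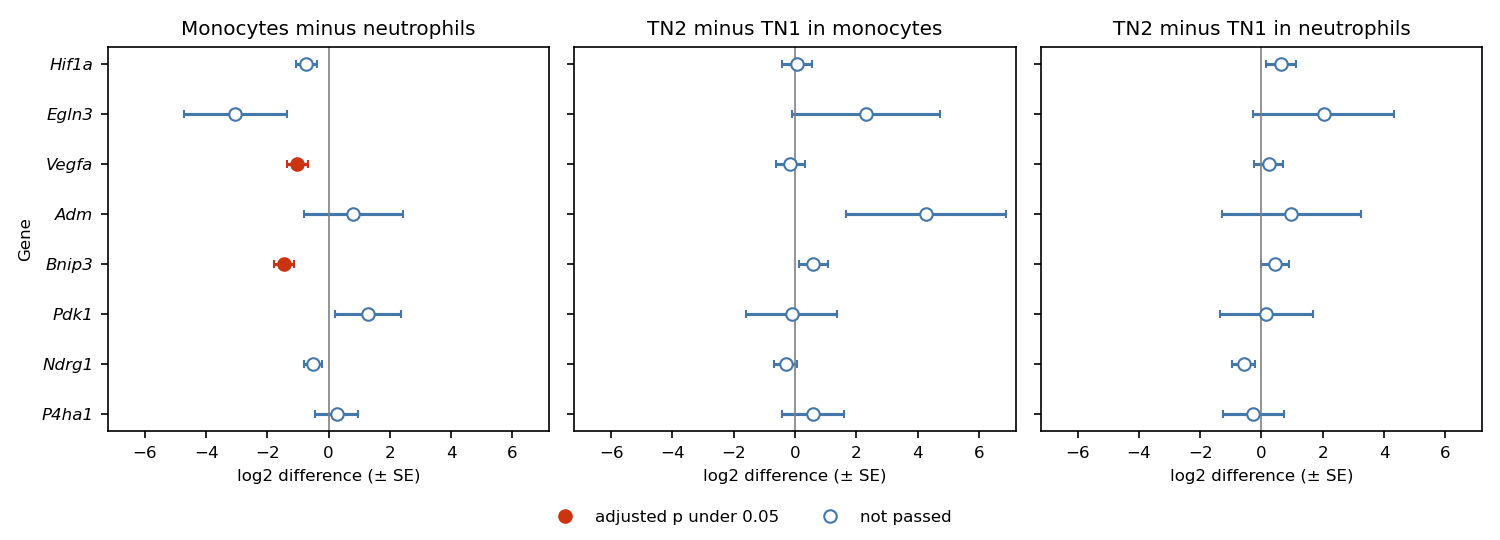
Log2 differences from edgeR with their SE for the 8 genes, monocytes minus neutrophils on the left and TN2 minus TN1 in monocytes and in neutrophils in the middle and on the right; filled points have an adjusted p under 0.05. Bnip3 at -1.46 and Vegfa at -1.02 in the left panel are the only filled points, and the bars of Adm, Egln3 and Pdk1 are the widest.

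Monocytes and neutrophils differed in 2 of the 8 genes, both lower in monocytes, a count near the background. Of all genes tested 12.4% were lower, 15.5% higher and 27.9% called in all (40.9% at an unadjusted p under 0.05). Bnip3 was at 16.3, 31.1 and 15.9 CPM in TN2 monocytes and 11.2 and 16.7 CPM in TN1 monocytes, against 56.6, 62.7 and 45.9 CPM in TN2 neutrophils and 39.9 and 40.6 CPM in TN1 neutrophils. Every monocyte library lay below every neutrophil library, tag_706 included. The log2 difference was -1.46 ± 0.33 (SE, edgeR, adjusted p = 0.00983), the adjusted p lay between 0.00636 and 0.0305 when any 1 library was left out, and it was under 0.05 in 15 of 17 alternatives (range 4.03e-05 to 0.129). The exceptions were the fits on log2(TPM + 1) and log2(TPM + 0.1), in which the difference was -0.66 and -0.70.

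Vegfa was at 45.9, 40.6 and 19.5 CPM in TN2 monocytes and 44.3 and 34.1 CPM in TN1 monocytes, against 105, 85.3 and 56.5 CPM in TN2 neutrophils and 87.5 and 51.9 CPM in TN1 neutrophils. Here too the cell types did not overlap, and on this scale 12.6% of all genes tested were lower and 16% higher without overlap. The log2 difference was -1.02 ± 0.34 (SE, edgeR, adjusted p = 0.0470), and this call was close to the threshold. It was kept in 6 of 17 alternatives (range of adjusted p 0.00897 to 0.30), and leaving out any of 7 of the 10 libraries ended it, at adjusted p from 0.0595 to 0.154. Those 7 were monocyte libraries TN2 tag_706, TN2 tag_1341, TN1 tag_191 and TN1 tag_482 and neutrophil libraries TN2 tag_367, TN2 tag_706 and TN1 tag_191. On the TPM scale the ranges overlapped for all 8 genes, Vegfa and Bnip3 included, where 6.17% of all genes were lower and 25.2% higher without overlap.

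The other 6 genes did not pass between cell types. Hif1a differed by -0.73 ± 0.34 (adjusted p = 0.134), Ndrg1 by -0.51 ± 0.28 (0.194) and Egln3 by -3.04 ± 1.67 (0.198). Pdk1 differed by 1.28 ± 1.07 (adjusted p = 0.399), Adm by 0.81 ± 1.61 (0.736) and P4ha1 by 0.26 ± 0.71 (0.81), all log2 with SE from edgeR. The value of Hif1a reached -1.01 without TN2 monocyte library tag_1341 (adjusted p = 0.0471, range over 17 alternatives 0.0471 to 0.974) and was 0.02 on log2(TPM + 1), while that of Ndrg1 was 0.20 on that scale. P4ha1 turned to -1.92 without TN1 monocyte library tag_191 (adjusted p = 0.0217, range 0.0217 to 0.988), when TN1 monocytes are represented by tag_482 alone, and was 0.74 without tag_482. Egln3 was 0.78 without TN1 neutrophil library tag_191, when TN1 neutrophils are represented by tag_482, which held 0 counts. The median over the 8 genes was -0.62, against 0.46 for all genes tested, and on log2(TPM + 1) all genes had a median of 0.62. Relative to those medians Bnip3 was at -1.92 on the count scale and -1.28 on log2(TPM + 1), Vegfa at -1.48 and -1.14, and Hif1a at -1.19 and -0.60.

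TN2 monocyte library tag_706 was the highest of the 5 monocyte libraries for 4 of the 8 genes, Egln3, Vegfa, Adm and Bnip3. Over all genes tested 41.0% were highest there, so 4 of 8 is close to the background. Of the related genes set beside it here, Ramp2, Lox and Angptl4 were chosen after their values were seen. Calcrl, which encodes the adrenomedullin receptor, was at 94.3 TPM in tag_706 and at most 1.60 TPM in the other monocyte libraries, and Ramp2, its accessory protein, at 578 TPM and at most 34.8 TPM. Ramp3, another accessory protein of Calcrl, was lowest in tag_706, at 83.7 TPM against 88.0 to 172 TPM in the others. Epas1, the HIF alpha subunit known from endothelium, was at 309 TPM there and at most 9.08 TPM in the others. Lox, a collagen cross-linking enzyme induced by HIF, was at 56.8 TPM and at most 0.775 TPM, and Angptl4, a secreted inhibitor of lipoprotein lipase, at 55.0 TPM and at most 2.93 TPM. Among the endothelial markers Pecam1 was at 208 TPM and Cdh5 at 39.2 TPM in this library, the epithelial marker Sftpc was at 323 TPM and the stromal marker Col1a1 at 28.3 TPM. All 7 endothelial, all 9 epithelial and all 7 stromal markers were above 0 in it, while up to 3, 6 and 3 of these were at 0 in the other monocyte libraries. The part of these other cells in the levels of Adm, Egln3 and Bnip3, the genes whose promoters are printed here, was not tested. Bnip3 was lower in monocytes than in neutrophils to a similar degree without tag_706, at -1.66 (adjusted p = 0.00636).

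**Figure D3:**
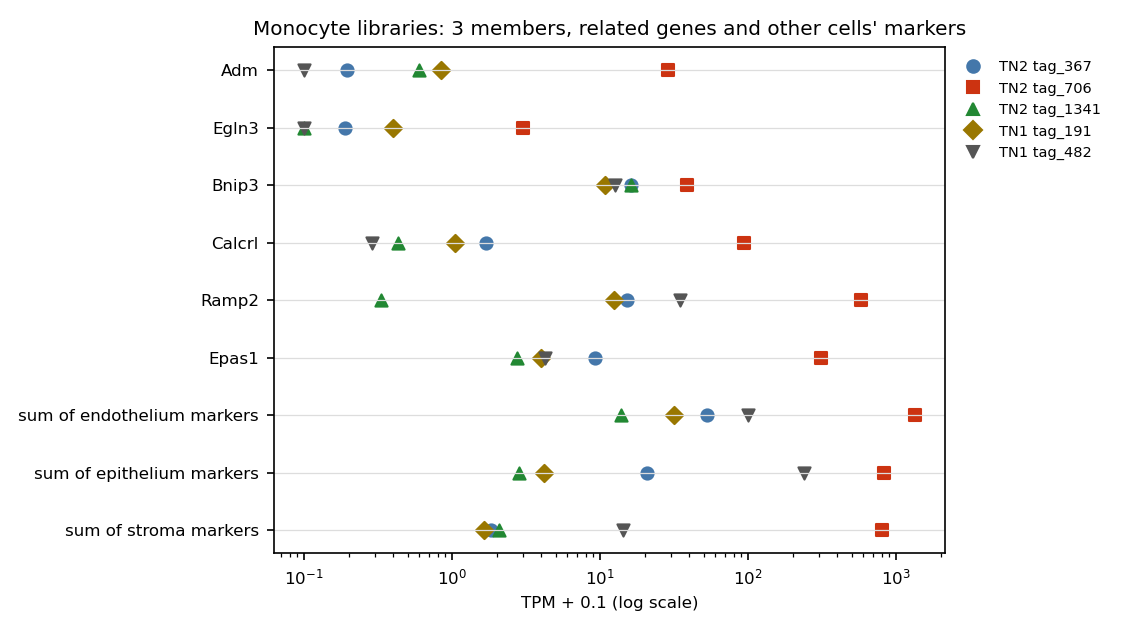
TPM + 0.1 on a log axis in the 5 monocyte libraries for Adm, Egln3 and Bnip3, for Calcrl, Ramp2 and Epas1, and for the summed markers of endothelium, epithelium and stroma; each symbol is a library. TN2 tag_706 is the rightmost symbol in every row, with 28.7 TPM of Adm, 94.3 TPM of Calcrl and 1337 TPM of summed endothelial markers.

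The lowest of the monocyte libraries was TN1 tag_482 for 5 of the 8 genes, and for Egln3 it shared 0 counts with TN2 tag_1341, where 45.5% of all genes tested were lowest in it. Lists of related genes, chosen with results of these data known, were counted in the same way. Of 31 tested other hypoxia-induced genes, 18 (58.1%) were highest in TN2 tag_706, and of 21 tested partners and paralogs of the 8 genes 14 (66.7%) were. Over all genes tested 41.0% were highest in tag_706. The part of its endothelial, epithelial and stromal content in these counts was not tested. Of 15 tested oxygen sensors and HIF regulators 4 (26.7%) were highest there, and 5 (33.3%) in TN2 tag_1341.

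**Figure D4:**
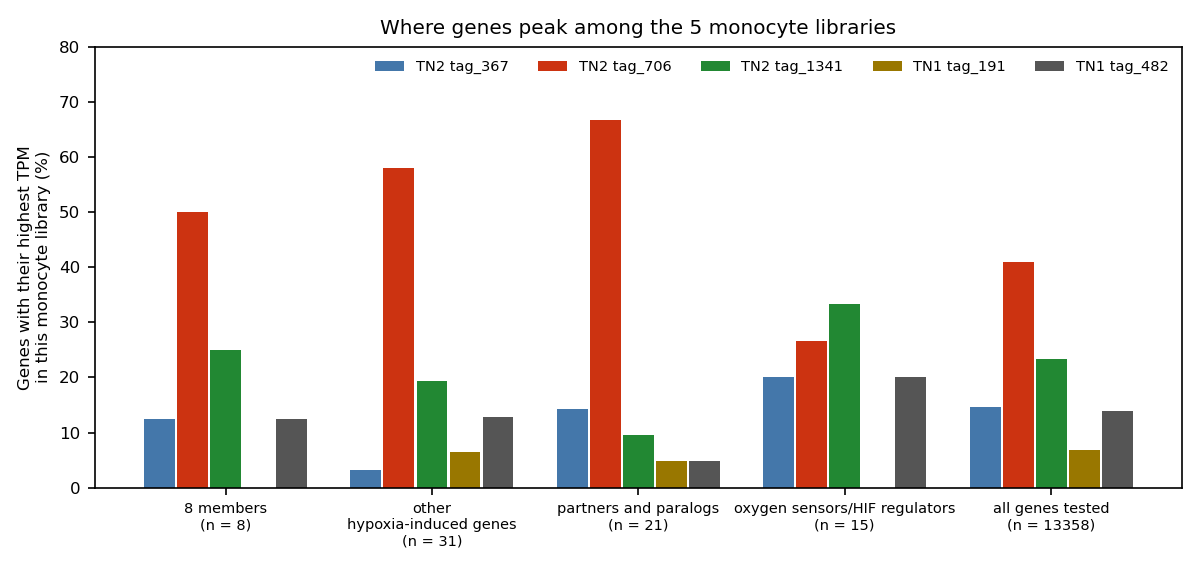
Share of genes (%) whose highest monocyte TPM was in each of the 5 monocyte libraries, for the 8 genes, for 3 lists of related genes and for all genes tested with counts in monocytes; the number of genes is under each group. TN2 tag_706 holds the highest level of 50% of the 8 genes and 41.0% of all genes.

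The levels of other genes were set beside those of each member by the root mean square difference of log2(TPM + 1), each gene centred on its own mean, over the 10 libraries and 7449 genes. Nearest to Hif1a were Apbb1ip (0.27), Ankrd12 and Sh3glb1. For Vegfa they were Ulk1 (0.23), Usp16 and Akt1, and for Bnip3 1810055G02Rik (0.17), Srpk2 and Fos. Ndrg1 was nearest to Arhgap15 (0.20), Trappc5 and Slc10a3, and P4ha1 to Rraga (0.30), Bad and Odr4. Egln3 was nearest to Faap100 (0.43), Peak1 and Myh9, Pdk1 to Rnf115 (0.26), Fau and Usp25, and Adm to Nox4 (0.53), Tagln and Plet1. The members themselves varied by 0.37 (Ndrg1) to 1.39 (Adm) about their own means on the same scale, and the libraries share depth and amplification, so these are descriptions.

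Single genes of the wider HIF pathway differed between the cell types. Of 31 tested other hypoxia-induced genes, 7 had lower and 4 had higher levels in monocytes, where 12.4% of all genes tested were lower, 15.5% higher and 27.9% called, so that 11 of 31 is near the background. Their median difference was 0.20, against 0.46 for all genes tested. Slc16a3, the lactate exporter MCT4, was at 431, 502 and 689 TPM in TN2 monocytes and 513 and 216 TPM in TN1 monocytes, against 3109, 4622 and 4230 TPM in TN2 neutrophils and 5691 and 3416 TPM in TN1 neutrophils. No monocyte library reached the neutrophil range, and the log2 difference was -3.98 ± 0.34 (SE, edgeR adjusted p = 8.61e-05). Slc2a1, the glucose transporter GLUT1, had a mean of 108 ± 34.1 TPM in monocytes and 356 ± 47.8 TPM in neutrophils (SD, n = 5 each), a log2 difference of -2.52 ± 0.26 (adjusted p = 0.000172). Pfkfb4 and Pfkfb3, bifunctional enzymes that set the level of a glycolytic activator, differed by -4.07 ± 0.59 (adjusted p = 0.000899) and -2.20 ± 0.49 (0.00849). Cxcr4, a chemokine receptor, was also lower, with a difference of -1.38 ± 0.31 (adjusted p = 0.00983). The other 2 lower genes were Bnip3l and Mxi1, whose calls were lost in 9 and 11 of 17 alternatives. Hk2, a hexokinase, was higher in monocytes, at 20.8 ± 5.14 TPM against 4.06 ± 2.40 TPM in neutrophils (SD, n = 5 each), a log2 difference of 2.06 ± 0.48 (adjusted p = 0.0107). The other 3 higher genes were Mif, Car9 and Rora, which, like Bnip3l and Mxi1, are named outside the rule for named genes. The calls of Slc16a3, Slc2a1 and Pfkfb4 held in all 17 alternatives, while on log2(TPM + 1) those of Pfkfb3 and Cxcr4 did not pass (adjusted p = 0.0651 and 0.137), nor those of Bnip3l and Mxi1 (0.694 and 0.627). On that scale 3 genes of the list were lower and 12 higher, where 5730 of 13384 genes tested passed and the median of all genes was 0.62. Without TN1 monocyte library tag_482 the counts were 4 lower and 2 higher on the count scale.

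**Figure D5:**
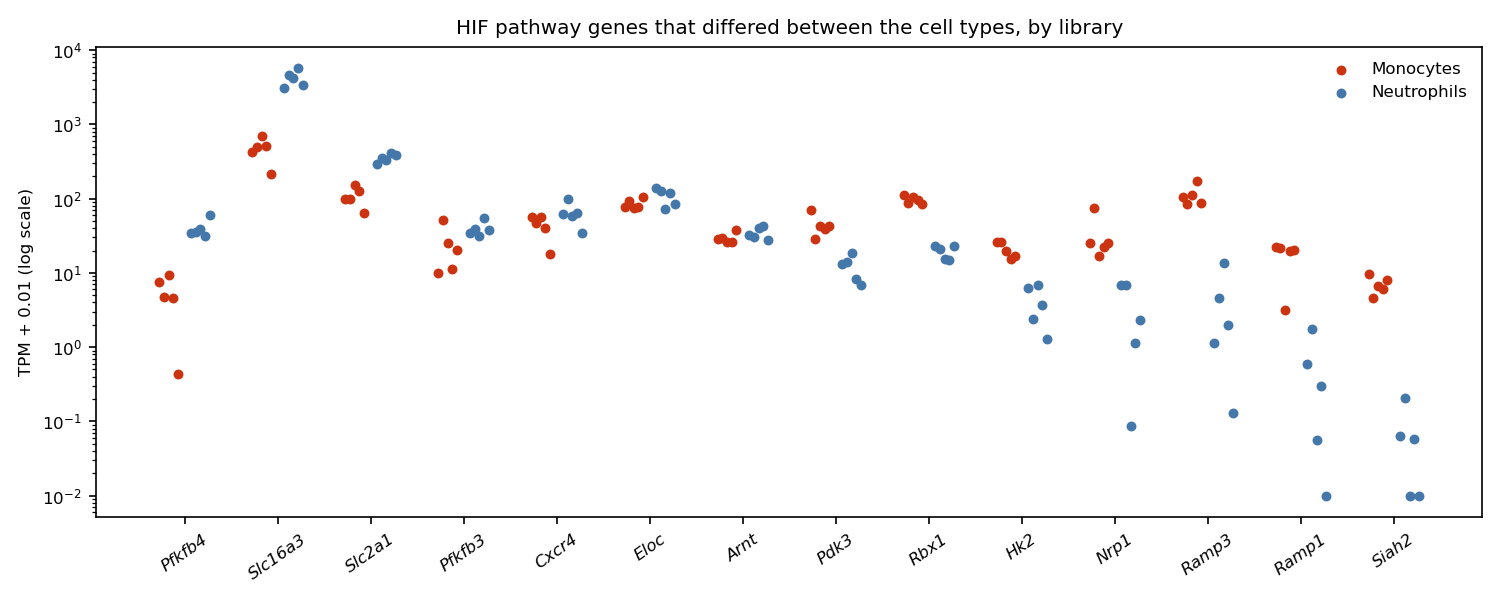
TPM + 0.01 on a log axis for 14 genes of the HIF pathway that passed the test between the cell types, with the 5 monocyte libraries (red) left of the 5 neutrophil libraries (blue) of each gene, and genes ordered from lower to higher in monocytes. Slc16a3 averaged 470.3 TPM in monocytes and 4214 TPM in neutrophils, and Siah2 averaged 6.95 TPM in monocytes and 0.0598 TPM in neutrophils.

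Among 15 tested oxygen sensors and HIF regulators, 2 had higher and 2 had lower levels in monocytes (15.5% and 12.4% of all genes tested), a count near the background, and their median difference was 0.04. Siah2, a ubiquitin ligase that targets EGLN prolyl hydroxylases, was at 6.95 ± 1.89 TPM in monocytes and 0.0598 ± 0.0807 TPM in neutrophils (SD, n = 5 each; log2 difference 6.67 ± 1.12 SE, edgeR adjusted p = 0.00195). Rbx1, a subunit of cullin ubiquitin ligases including that of von Hippel-Lindau, was at 96.8 ± 11 TPM in monocytes and 19.3 ± 4.01 TPM in neutrophils (1.57 ± 0.25, adjusted p = 0.00148). Eloc, the elongin C subunit of the same ligase, and Arnt, the partner of HIF1A, were lower in monocytes by log2 differences of -1.06 ± 0.26 (adjusted p = 0.0132) and -0.89 ± 0.26 (0.0302). The calls of Siah2 and Rbx1 held in all 17 alternatives, and on log2(TPM + 1) those of Eloc and Arnt did not pass (adjusted p = 0.353 and 0.517). On that scale 5 genes of the list were higher and 0 lower, where 5730 of 13384 genes tested passed and the median of all genes was 0.62. Arnt's call was lost in 9 of the 17 alternatives, 5 of them with 1 library left out (monocyte libraries TN2 tag_1341, TN1 tag_191 and TN1 tag_482, and neutrophil libraries TN2 tag_1341 and TN1 tag_191). Eloc's was lost in 3, among them the fit without TN1 monocyte library tag_191.

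Of 21 tested partners and paralogs, 4 passed with higher levels in monocytes and 0 with lower ones (15.5% and 12.4% of all genes tested), a count near the background. The median difference of the 21 was 1.29, against 0.46 for all genes tested. On log2(TPM + 1) 12 were higher and 0 lower, where 5730 of 13384 genes tested passed and the median of all genes was 0.62. Ramp3 and Ramp1, which pair with Calcrl to form receptors for adrenomedullin and related peptides, were at 112 ± 35.3 and 17.3 ± 8.0 TPM in monocytes, against 4.30 ± 5.53 and 0.529 ± 0.710 TPM in neutrophils (SD, n = 5 each). Their log2 differences were 4.63 ± 0.85 (adjusted p = 0.00331) and 4.91 ± 1.14 (0.0107). Pdk3, a paralog of Pdk1, differed by 1.29 ± 0.36 (adjusted p = 0.0244), with 44.8 ± 15.8 TPM in monocytes and 12.1 ± 4.76 TPM in neutrophils. Nrp1, a co-receptor for VEGF, differed by 2.68 ± 0.87 (adjusted p = 0.0446). The calls of Pdk3 and Nrp1 were each lost in 10 of 17 alternatives.

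Between tumours 0 genes of the 3 lists passed in either cell type, as for all genes tested (0%). The test of an unequal tumour difference in the cell types also passed for 0 of them. In monocytes the smallest p values belonged to Cul2 (TN2 minus TN1 1.44 ± 0.68, log2, SE) and Epas1 (4.26 ± 2.17) among the regulators, Ldha (-0.66 ± 0.27) and Pfkfb3 (1.46 ± 0.69) among the other induced genes, and Calcrl (5.06 ± 2.08) and Ndrg2 (7.01 ± 3.38) among the partners and paralogs, all at an edgeR adjusted p of 1. Of these, Epas1, Pfkfb3, Calcrl and Ndrg2 had their highest monocyte level in TN2 tag_706. In neutrophils the smallest p values belonged to Vhl (1.35 ± 0.81), Egln2 (1.92 ± 1.37), Hilpda (0.80 ± 0.44), Ddit4 (2.26 ± 1.44), Ramp3 (2.84 ± 1.18) and Pdk3 (1.15 ± 0.52), all at an adjusted p of 0.943. Ldha, lactate dehydrogenase A, was at 755 ± 56.1 TPM in TN2 monocytes (SD, n = 3) and 929 ± 97.8 TPM in TN1 monocytes (SD, n = 2). Hilpda, a lipid droplet protein induced by HIF, was at 514 ± 41.3 TPM in TN2 neutrophils (SD, n = 3), against 461 and 174 TPM in the TN1 neutrophil libraries, of which tag_482 was the lower.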

How the data were processed

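RNA of 10 libraries of sorted lung monocytes and neutrophils was analysed from the deposited tables. Per the labels, cDNA was made with Smart-seq2 and sequenced on an Illumina HiSeq instrument. Per the series' design text, the authors ran kallisto 0.42.3 on the mouse transcriptome of build GRCm38. Per the file headers, each deposited table gives estimated counts, an effective length and TPM per transcript. The authors' deposited comparison tables give log2 group means and p-values from AltAnalyze.

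Gene sums were made over the transcripts of GENCODE M21 (96.0% matched; the rest held 1.94% to 3.59% of the counts). Gene counts were rounded and the 4 groups fitted in one model with edgeR 4.0.16 in R 4.3.3 (filterByExpr with a minimum count of 10 and a total of 10, TMM, quasi-likelihood F test, 6 residual degrees of freedom, Benjamini-Hochberg over 13384 genes, threshold 0.05). SE is the absolute log2 difference over the square root of F. Cell types were compared as the mean of the contrasts in TN1 and TN2. The fit was tested on simulated data. Recovery of changed genes was required there only at a spread between libraries below that of these data. The common biological coefficient of variation of these data was 0.887. Alternatives used DESeq2 1.42.0, limma 3.58.1 on log2(TPM + 1), other filters and each library left out.

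The members and lists were chosen with earlier results of these data known. Named genes are all members, list genes with adjusted p under 0.05 (at most the 6 smallest p per list and comparison, or the 2 smallest where none passed) and the 3 nearest genes by level. The floor of 3 counts covers counting error only, while SE and SD also reflect the spread between libraries.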

Additional observations from a re-analysis of the deposited data

How the results depend on the processing

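Tumour comparisons called 0 of the genes of the set that could be tested under each alternative that was run. Adm had no adjusted p by DESeq2 and was not tested without either tag_706 library or in fits of a cell type alone, and Egln3 was not tested in the fit of monocytes alone. Genes called in neutrophils numbered 2 without the filter on low counts, 87 by DESeq2, 1 on log2(TPM + 1), 3 on log2(TPM + 0.1) and 0 to 506 with 1 library left out (506 without TN1 tag_191). In monocytes DESeq2 called 22 and leaving out 1 library gave 0 to 128. For the difference of the tumour effects the counts were 1 without the filter, 30 by DESeq2 and 0 to 372. Between cell types 5730 genes passed on log2(TPM + 1), and 2682 to 3861 with 1 library left out. Of the 8 genes, 1 passed between cell types without the filter, 0 on either TPM scale, 1 without both tag_482 libraries (an alternative chosen after seeing the data) and 1 to 2 with 1 library left out. Vegfa's adjusted p was 0.0824 without the filter and 0.0901 without both tag_482 libraries.

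Signs of values that had not passed turned in these cases, and the cause was not tested. On log2(TPM + 1) and log2(TPM + 0.1), TN2 minus TN1 was -0.12 and -0.13 for Vegfa in neutrophils, and in monocytes 0.40 and 0.42 for Vegfa, 0.40 and 1.17 for Pdk1 and 0.08 in both for Ndrg1. The difference of the effects was -0.92 and -2.10 for Egln3, 0.53 and 0.55 for Vegfa and 0.30 and 0.92 for Pdk1, and monocytes minus neutrophils was 0.02 in both for Hif1a and 0.20 in both for Ndrg1. Hif1a in monocytes was -0.01 with DESeq2's size factors and by DESeq2. Without both tag_482 libraries, neutrophil values were -0.13 for Vegfa, -0.30 for Pdk1 and 0.01 for P4ha1, monocyte values -0.01 for Hif1a, 0.06 for Ndrg1 and -0.42 for P4ha1, and the difference for P4ha1 was -0.43.

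With 1 library left out, values in neutrophils ran from -0.08 to 0.67 for Vegfa, -0.58 to 0.82 for Pdk1 and -0.52 to 0.05 for P4ha1. In monocytes they ran from -0.51 to 0.29 for Hif1a, -1.68 to 6.54 for Egln3, -0.56 to 0.04 for Vegfa, -1.22 to 4.29 for Pdk1, -0.65 to 0.05 for Ndrg1 and -0.43 to 4.88 for P4ha1. The difference of the effects ran from -7.38 to 4.58 for Egln3, -0.11 to 0.45 for Bnip3, -1.29 to 4.22 for Pdk1, -0.11 to 0.76 for Ndrg1 and -0.05 to 5.26 for P4ha1. Monocytes minus neutrophils ran from -5.40 to 0.78 for Egln3, -1.70 to 1.31 for Adm, -1.05 to 1.71 for Pdk1 and -1.92 to 0.74 for P4ha1.

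Whether libraries of the same tag come from the same animal is not given in the labels, and the deviations of same-tag libraries from their group means did not establish it, with correlations of -0.06 to 0.38. The TN2 libraries tag_706 and tag_1341 correlated best with their own number and tag_367 did not, while the TN1 pair, whose deviations mirror each other, gave 1 value, 0.09. With tag as a replicate block 3335 genes and 2 of the 8 passed between cell types, with Adm at -0.32 and P4ha1 at -0.52, and 0 genes in the difference of the effects, with Egln3 at -2.19 and Pdk1 at 1.05. Depth limits Adm, Egln3 and Pdk1, which had 7 counts or fewer in 8, 5 and 4 of the 10 libraries.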
